A study of Homo sapiens with 6 samples.

Results

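The genes described here encode the heat shock chaperones of the cytosol and nucleus, their partner proteins, 5 chaperones of the mitochondrial matrix, and the subunits of the chaperonin TRiC. They were taken by gene symbol from a fixed list, and all 41 were found among the 25662 genes of the deposited table. RNA was sequenced from HCT116 cells, a line established from a human colorectal cancer and grown in McCoy's 5a medium with serum. There were 3 control libraries, which received DMSO per the protocol and carry 0 h in their titles, and 3 libraries from cells exposed to 1 µM BMH-21 for 24 h. That compound intercalates into DNA and inhibits RNA polymerase I, the enzyme that makes ribosomal RNA. Should the controls stem from 0 h, the effects of the drug and of a day of growth cannot be told apart. All libraries came from a single cell line, and the series calls the replicates biological.

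Chaperones bind unfolded proteins and let them reach their native shape. HSP70 proteins take up short exposed stretches of a client, are directed and stimulated by J-domain proteins, and are reset by nucleotide exchange factors. HSP90 acts later, on kinases and receptors among others, with cochaperones that deliver clients or time its ATP cycle, while TRiC encloses actin, tubulin and other clients in a chamber. When unfolded protein builds up, the transcription factor HSF1 binds inverted repeats of GAA, called heat shock elements, and raises the inducible members of these families.

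Values are TPM, a transcript's share of its library per unit of length, in which a loss of total RNA per cell does not show, and in which fewer cells and less RNA per cell cannot be told apart. Together the 41 genes made up 0.972% to 1.14% of TPM in every library. Between 11509 and 12001 genes reached 1 TPM per library, and transcripts of the mitochondrial genome took 20.3% to 26.1% of TPM. Control replicate 1 and BMH-21 replicate 3 had the largest mitochondrial shares, 25.8% and 26.1%, and lay farthest from their group means. The chaperone genes showed this too: 33 of 41 were below the control mean in control replicate 1, among them all 8 TRiC subunits. Of 8 epithelial markers, 7 were listed and all 7 reached 1 TPM, with summed levels of 5343 to 5586 TPM in controls and 11641 to 13220 TPM after BMH-21. Summed fibroblast markers were at 3.77 to 4.9 TPM in controls and 1.88 to 3.73 TPM after BMH-21, and 3 of 6 were at 0 throughout. Leukocyte markers went from 3.62 to 4.62 TPM down to 0.49 to 1.03 TPM, most of it CD68, and endothelial markers were at or under 0.22 TPM. The part of these in the results was not tested.

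Chaperone genes changed singly and in both directions after BMH-21, by small amounts. Of the 41, 7 rose, 7 fell and 27 did not pass, against 36.4% of all 12041 genes kept that were called in either direction. The share among the chaperones was 34.1%, close to that background. Higher calls were 17.1% of the chaperones against 19.4% of all genes, and lower calls 17.1% against 16.9%. The counts by role given below come from few genes each, too few to set against these shares. The median log2 fold change was -0.005 over the chaperones and 0.06 over all genes kept, and only PTGES3 had a change of more than 1 on the log2(TPM + 1) scale. The 2 groups of libraries did not overlap for 23 of 41 chaperone genes (56.1%), where 51.5% of all genes were so separated. Without control replicate 1 and BMH-21 replicate 3 together, 10 chaperone genes were higher and 16 lower, while 24.7% of all genes were called higher and 33.7% lower. Because those libraries lay farthest from their group means, leaving both out lowers the spread within groups, and calls gained there are not added support.

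**Figure D1:**
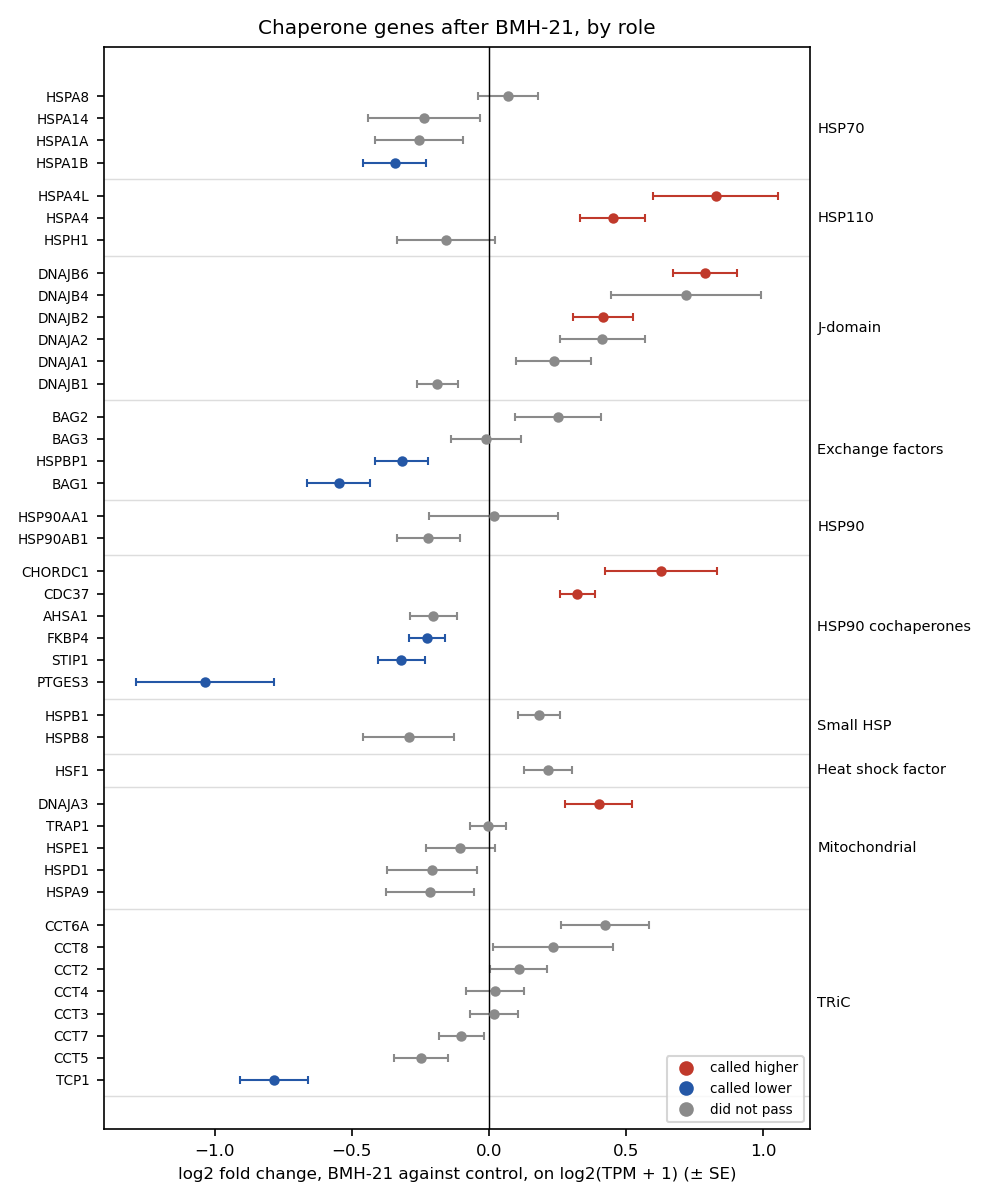
Log2 fold change of each of the 41 chaperone genes, BMH-21 against control, on the log2(TPM + 1) scale, grouped by role. Points are estimates of the limma fit and bars are ± 1 SE; red and blue mark genes called higher (7) and lower (7), and grey marks the 27 that did not pass.

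Among the HSP70 proteins, 1 of 4 genes was lower, a copy of the inducible form, and the abundant constitutive form did not pass the test. The share called lower over all genes kept was 16.9%. HSPA8, the constitutive cytosolic HSP70, was at 1210, 1520 and 1540 TPM in control replicates 1 to 3 and at 1480, 1410 and 1560 TPM after BMH-21. The groups overlapped, and the log2 fold change was 0.07 (SE 0.11, limma adjusted p = 0.66). HSPA1B, from the gene pair for the inducible HSP70, was at 238, 232 and 230 TPM in controls and 165, 168 and 223 TPM after BMH-21. Every treated library was below every control, with replicate 3 much nearer to them than the others, and the log2 fold change of -0.34 just passed (SE 0.12, limma adjusted p = 0.046). Leaving out any control, or BMH-21 replicate 1 or 2, ended that call (limma adjusted p between 0.097 and 0.15), and in all it passed in 7 of 16 alternative settings.

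HSPA1A and HSPA1B are hard to separate by their coding sequences, which differ at 4 of 1923 bases. The rest of their transcripts was not compared. HSPA1A was listed at only 4.35, 4.10 and 3.66 TPM in controls and 2.74, 3.26 and 3.70 TPM after BMH-21. The groups overlapped, and the split of reads between these genes is uncertain. Summed into a single gene, the pair had the log2 fold change of HSPA1B, -0.34 (limma adjusted p = 0.046). Within each library, the log2 ratio of the summed pair to HSPA8 was -2.31, -2.68 and -2.71 in controls and -3.14, -3.03 and -2.77 after BMH-21. All treated libraries were below all controls, by 0.41 on average, with an exact two-sided permutation p of 0.1, the smallest that 3 against 3 can give (adjusted over 2 such ratios, p = 0.2). HSPA14, a ribosome-associated HSP70, was at 5.15 ± 1.35 and 4.15 ± 0.55 TPM (SD, n = 3 libraries per group) and did not pass. HSPA6, an HSP70 gene that is silent without stress, was at or under 0.1 TPM in every library.

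Stretches from the promoters of the HSP70 pair, TCP1 and DNAJB6 are shown as examples. Each holds an inverted pair of GAA upstream of the start that RefSeq gives. Of these, only DNAJB6 holds the longer form described below. Other promoters with matches, among them those of HSPA8 and CHORDC1, are not shown. Sequences are from RefSeq (GRCh38.p14), 5′ to 3′ on the strand of the gene, at chr6:31815408-31815467 and chr6:31827604-31827663 (+ strand) for HSPA1A and HSPA1B. TCP1 is at chr6:159789793-159789852 (- strand) and DNAJB6 at chr7:157336849-157336908 (+ strand). The marked TCP1 match begins at -231 from the TCP1 start. It lies beyond the RefSeq start of MRPL18, a gene on the opposite strand that starts 210 bases from TCP1. GENCODE release 29, whose positions are given for the genes, has other starts: the DNAJB6 stretch lies within its DNAJB6 gene, outside exons, and the last 4 bases of the HSPA1A stretch lie in its first exon. Capitals mark every match to GAANNTTC or TTCNNGAA, where N is any base; both read the same on either strand, and matches may overlap.
HSPA1A: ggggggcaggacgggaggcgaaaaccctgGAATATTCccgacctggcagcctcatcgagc
HSPA1B: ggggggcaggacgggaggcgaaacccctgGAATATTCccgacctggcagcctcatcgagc
TCP1: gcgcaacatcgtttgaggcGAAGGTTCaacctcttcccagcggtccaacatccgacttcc
DNAJB6: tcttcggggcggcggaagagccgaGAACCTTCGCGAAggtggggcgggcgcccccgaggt

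The HSPA1A and HSPA1B stretches differ at 1 of 60 bases. Over the window from 250 bases before to 50 after the RefSeq start, 12 of the 37 chaperone promoters listed held at least 1 such match (32.4%). The share was 13.7% of all 27305 promoters and 9.57% of the 9455 promoters of genes kept. The longer form, GAANNTTC followed directly by NNGAA, or its reverse complement, was in 0.487% of all promoters and 0.286% of those of genes kept. Among the 37 chaperone promoters, 4 held it (10.8%). These 4 were CHORDC1, DNAJB6, DNAJA1 and HSPA8, and their log2 fold changes ran from 0.07 for HSPA8 to 0.79 for DNAJB6, with 2 called higher and none lower. The 8 chaperone genes with the shorter form only ran from -0.78 to 0.25, with 2 lower and none higher. Of 25 without a match, 5 were higher and 4 lower. Over all genes kept, 19.4% were called higher and 16.9% lower, and sets of 4 and 8 genes are too small to set against these shares. A link between matches and calls was not tested. A match describes letters in this window and not a bound site. The lack of a match does not show that a gene lacks heat shock elements, since only exact letters in this window were searched. CCT6A, FKBP4, HSF1 and HSPA14 were not among the promoters listed.

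HSP110 proteins are large relatives of HSP70 that act as its exchange factors and help dissolve aggregates, and 2 of the 3 measured were higher. With 19.4% of all genes kept called higher, 3 genes are too few to set against that share. HSPA4 (chromosome 5, 133051962 to 133106449, GRCh38) was at 25.9, 33.8 and 32.0 TPM in controls and 39.6, 41.3 and 45.0 TPM after BMH-21. All treated libraries exceeded all controls, and the means were 1.37-fold apart (log2 fold change 0.45, SE 0.12, limma adjusted p = 0.017). HSPA4L was far lower in level, at 0.99, 1.52 and 2.62 TPM in controls and 4.25, 3.29 and 3.48 TPM after BMH-21, with means 2.15-fold apart (limma adjusted p = 0.021). HSPH1, the heat-inducible HSP110, was at 12.7, 15.9 and 18.3 TPM in controls and 11.9, 12.6 and 17.2 TPM after BMH-21, with overlapping groups (limma adjusted p = 0.52). Without BMH-21 replicate 2, HSPA4 just missed the threshold (adjusted p = 0.051), and HSPA4L missed it without control replicate 1 (0.055) or 2 (0.063) or BMH-21 replicate 1 (0.076).

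J-domain proteins hand clients to HSP70. Of the 6 among the chaperone genes that act outside mitochondria, 2 were higher, none was lower and 4 did not pass. With 19.4% of all genes kept called higher and 16.9% lower, 6 genes are too few to set against these shares. DNAJB6, which holds aggregation-prone proteins in solution (chromosome 7, 157335381 to 157417439), was at 59.1, 76.3 and 70.9 TPM in controls and 116, 108 and 134 TPM after BMH-21. The groups were well apart, with means 1.73-fold apart (log2 fold change 0.79, SE 0.12, limma adjusted p = 0.0011), and the call held in all 16 alternative settings. DNAJB2, a J-domain protein that binds ubiquitin chains, was at 16.9, 16.1 and 15.2 TPM in controls and 20.4, 21.4 and 23.5 TPM after BMH-21 (log2 fold change 0.42, limma adjusted p = 0.018). It missed the threshold without control replicate 2 (adjusted p = 0.065) or 3 (0.082) or BMH-21 replicate 2 (0.062).

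DNAJA2 and DNAJB4 were above the controls in every treated library without passing the test. Their log2 fold changes were 0.41 (limma adjusted p = 0.066) and 0.72 (limma adjusted p = 0.07), and both passed with 3 of the other scalings. DNAJB4 also passed without control replicate 2, at 0.92 (adjusted p = 0.041). With control replicate 1 left out, DNAJB4 was at 0.38 (adjusted p = 0.12) and DNAJA2 at 0.26 (adjusted p = 0.18). DNAJA1, a cytosolic J-domain protein, was at 61.1 ± 11.1 and 71.4 ± 6.33 TPM (SD, n = 3 libraries per group), with overlapping groups. DNAJB1, the main heat-inducible J-domain protein, went from 159 ± 6.35 to 140 ± 8.02 TPM (SD, n = 3 libraries per group) without passing, with every treated library below every control (limma adjusted p = 0.082). It passed as lower without BMH-21 replicate 3, at -0.23 (adjusted p = 0.015). Its exons share 211 bases with TECR on the opposite strand, whose mean went from 255 to 131 TPM, and strand use in the counting is not known.

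Of the nucleotide exchange factors other than HSP110, BAG1 and HSPBP1 were lower. BAG1, which links HSP70 to the proteasome through a ubiquitin-like domain (chromosome 9, 33247820 to 33264720), was at 43.2, 51.8 and 48.9 TPM in controls and 29, 31.9 and 36.7 TPM after BMH-21. All treated libraries were below all controls, a 1.47-fold fall of the mean (log2 fold change -0.55, SE 0.12, limma adjusted p = 0.0062), and the call held in all 16 alternative settings. HSPBP1 went from 104 ± 4.36 to 83.9 ± 9.45 TPM (SD, n = 3 libraries per group; limma adjusted p = 0.031). Its call was lost without any 1 of the controls (adjusted p between 0.071 and 0.087). The trimmed mean, median of ratios and quantile scalings also ended it (adjusted p between 0.051 and 0.079). In all, HSPBP1 passed in 8 of 16 alternative settings. BAG3, an HSF1 target that carries clients to autophagy, was at 56.5 ± 1.5 and 56.6 ± 10.8 TPM, and BAG2, an inhibitor of the ubiquitin ligase CHIP, at 4.63 ± 0.66 and 5.68 ± 0.21 TPM. Neither passed, and the BAG2 groups did not overlap.

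Neither cytosolic HSP90 gene passed the test with all 6 libraries. HSP90AB1, the constitutive and more abundant form, was at 1680, 2010 and 2000 TPM in controls and 1540, 1510 and 1850 TPM after BMH-21. The groups overlapped through control replicate 1 and BMH-21 replicate 3 (log2 fold change -0.22, limma adjusted p = 0.17). It passed as lower without BMH-21 replicate 3, at -0.31 (adjusted p = 0.024). HSP90AA1, the stress-inducible form, was at 104, 205 and 201 TPM in controls and 177, 169 and 148 TPM after BMH-21, so that its control spread came from replicate 1 (log2 fold change 0.02, limma adjusted p = 0.96). With control replicate 1 left out its sign turned and it passed as lower, at -0.30 (adjusted p = 0.048), and with BMH-21 replicate 3 also left out it was at -0.23 (adjusted p = 0.0039). The log2 ratio of HSP90AA1 to HSP90AB1 was -3.54 ± 0.41 in controls and -3.30 ± 0.29 after BMH-21 (SD, n = 3 libraries per group), a difference of 0.24 with an exact two-sided permutation p of 0.5. Without control replicate 1 that difference was 0.00.

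**Figure D2:**
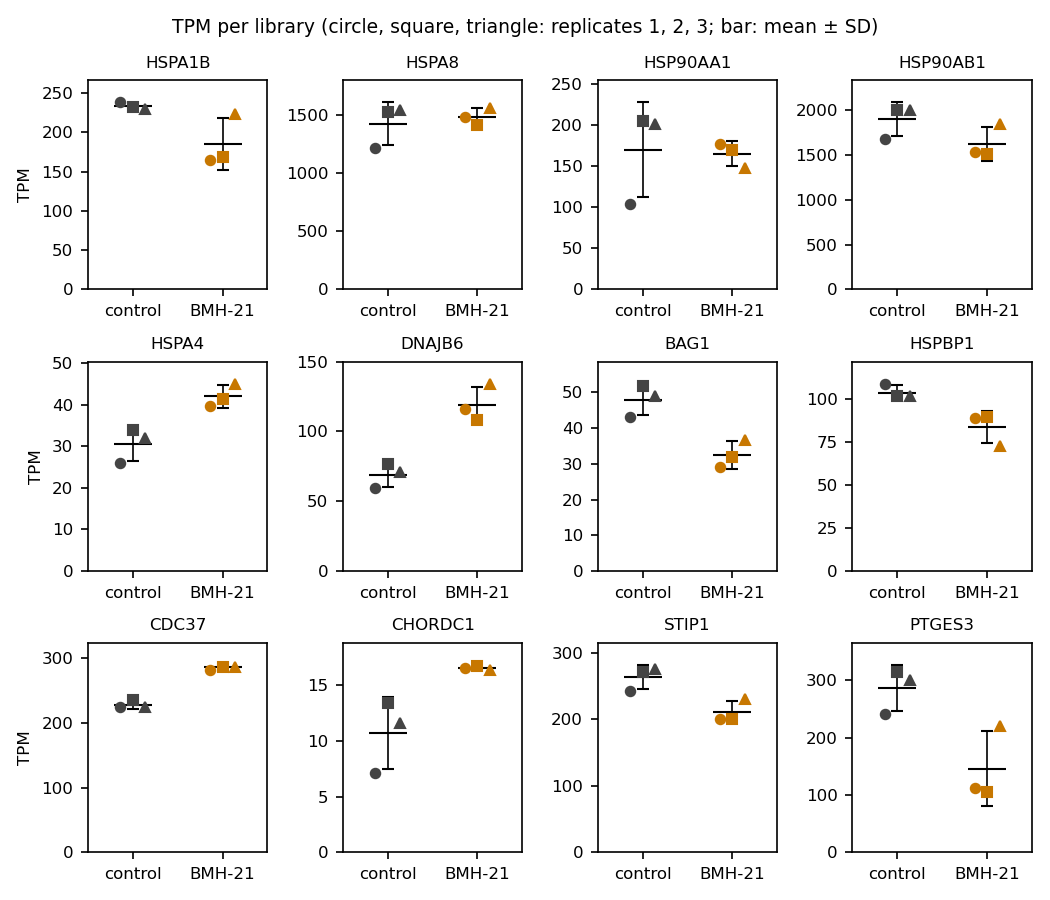
TPM of 12 chaperone genes in each library, on a linear axis from 0. Circles, squares and triangles are replicates 1, 2 and 3, and bars are the mean ± SD of 3 libraries. DNAJB6 and CDC37 were above the controls in every treated library, BAG1 and STIP1 below, and control replicate 1 of HSP90AA1 lay at 104 TPM against 201 and 205 TPM.

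The 6 cochaperones of HSP90 were called in both directions, with 2 higher, 3 lower and 1 that did not pass. Over all genes kept, 19.4% were called higher and 16.9% lower, and 6 genes are too few to set against these shares. PTGES3, or p23, which stabilises the closed ATP-bound form of HSP90 (chromosome 12, 56663341 to 56688408), had the largest change among the 41 genes on the log2(TPM + 1) scale, whereas by the ratio of means the rises of HSPA4L (2.15-fold) and DNAJB4 (2-fold) exceeded its 1.95-fold fall. It was at 241, 315 and 301 TPM in controls and 112, 106 and 221 TPM after BMH-21. Replicate 3 of the treated group was close to the lowest control while replicates 1 and 2 were far below it, and the log2 fold change of -1.03 carried an SE of 0.25 (limma adjusted p = 0.012). Its call held without any 1 library and was lost when genes of low TPM were kept in the fit (adjusted p = 0.054).

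STIP1 and FKBP4 also fell. STIP1, or HOP, which joins HSP70 to HSP90 for client transfer, was at 243, 271 and 276 TPM in controls and 201, 201 and 230 TPM after BMH-21, with every treated library below every control (log2 fold change -0.32, SE 0.09, limma adjusted p = 0.02). FKBP4, a prolyl isomerase of steroid receptor complexes, went from 224 ± 5.44 to 191 ± 2.29 TPM (SD, n = 3 libraries per group; limma adjusted p = 0.025). AHSA1, an activator of the HSP90 ATPase, was at 300 ± 4.60 and 262 ± 27.1 TPM without passing (limma adjusted p = 0.096), and passed as lower without BMH-21 replicate 3 (adjusted p = 0.0033). STIP1 was not called without control replicate 2 or 3 or BMH-21 replicate 1 or 2 (adjusted p between 0.071 and 0.084). The same was so of FKBP4 (adjusted p between 0.075 and 0.11), whose call was also lost with the trimmed mean, median of ratios and quantile scalings.

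CDC37 and CHORDC1 rose. CDC37, which brings kinases to HSP90 (chromosome 19, 10391134 to 10420121), was at 224, 235 and 225 TPM in controls and 282, 287 and 287 TPM after BMH-21. The groups were tight and apart (log2 fold change 0.32, SE 0.07, limma adjusted p = 0.0052), and the call held without any 1 library. It was lost with 2 scalings that moved the median of all genes from 0.06 to 0.01, the trimmed mean (adjusted p = 0.093) and the median of ratios (adjusted p = 0.097). CHORDC1, an HSP90-binding protein with zinc-binding CHORD domains, was at 7.10, 13.4 and 11.6 TPM in controls and 16.6, 16.7 and 16.4 TPM after BMH-21 (log2 fold change 0.63, limma adjusted p = 0.04). Leaving out control replicate 3 or any treated library ended the CHORDC1 call (adjusted p between 0.061 and 0.1). Without control replicate 1, its lowest library, the log2 fold change was 0.38 (adjusted p = 0.048).

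The heat shock factor and the small heat shock proteins did not pass the test. HSF1 was at 115, 108 and 104 TPM in controls and 115, 127 and 137 TPM after BMH-21, so that control replicate 1 and BMH-21 replicate 1 nearly met (log2 fold change 0.21, SE 0.09, limma adjusted p = 0.086). With control replicate 1 and BMH-21 replicate 3, the libraries farthest from their group means, both left out, it passed as higher, at 0.19 (adjusted p = 0.032). Its exons share 139 bases with DGAT1 on the opposite strand, whose mean went from 51.8 to 68.5 TPM. HSPB1, which holds unfolded clients without ATP, was at 641, 631 and 647 TPM in controls and 750, 760 and 670 TPM after BMH-21, each treated library above each control (log2 fold change 0.18, limma adjusted p = 0.098). It passed as higher without BMH-21 replicate 3, at 0.24 (adjusted p = 0.005). HSPB8, which works with BAG3, was at 5.16 ± 0.66 and 4.03 ± 0.56 TPM (SD, n = 3 libraries per group; limma adjusted p = 0.2). Of the partner list, CRYAB and HSPB6 were at or under 0.105 and 0.235 TPM in every library.

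Among the 5 mitochondrial chaperones, DNAJA3 alone was higher and none was lower, where 19.4% of all genes kept were higher and 16.9% lower. DNAJA3, a J-domain partner of mitochondrial HSP70 (chromosome 16, 4425805 to 4456775), was at 65.7, 87.8 and 85.5 TPM in controls and 99.2, 100 and 115 TPM after BMH-21. All treated libraries were above all controls (log2 fold change 0.40, SE 0.12, limma adjusted p = 0.031). That call was lost without control replicate 1 (adjusted p = 0.061) or any 1 treated library (adjusted p between 0.054 and 0.071). HSPA9, the mitochondrial HSP70 itself, was at 181 ± 31.4 and 156 ± 30.4 TPM (SD, n = 3 libraries per group), and TRAP1, the mitochondrial HSP90, at 395 ± 1.29 and 393 ± 11.2 TPM.

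HSPD1 and HSPE1 encode the chaperonin of the mitochondrial matrix and its lid, from RefSeq starts 105 bases apart on opposite strands of chromosome 2. HSPD1 was at 278, 416 and 403 TPM in controls and 296, 278 and 368 TPM after BMH-21, and HSPE1 at 505, 586 and 597 TPM and then 606, 537 and 438 TPM. Both sets overlapped, with log2 fold changes of -0.21 (limma adjusted p = 0.35) and -0.10 (limma adjusted p = 0.55). The low control of HSPD1 was replicate 1, and without it HSPD1 passed as lower, at -0.39 (adjusted p = 0.048). The annotated exons of the genes share 281 bases on opposite strands, and reads there cannot be told apart without strand.

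Of the 8 TRiC subunits, which assemble in equal number into a pair of stacked rings, TCP1 was lower and the other 7 did not pass. The share called lower among all genes kept was 16.9%. TCP1, the subunit also called CCT1 (chromosome 6, 159778498 to 159789749), was at 283, 338 and 331 TPM in controls and 174, 161 and 220 TPM after BMH-21. Every treated library was below every control, a 1.72-fold fall of the mean (log2 fold change -0.78, SE 0.13, limma adjusted p = 0.0015). The call held in all 16 alternative settings, with log2 fold changes between -1 and -0.69. As a share of summed TRiC TPM, TCP1 was at 11.5%, 11.6% and 11.2% in controls and 6.52%, 6.28% and 8.59% after BMH-21.

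The exons of TCP1 share 397 of 4929 annotated bases with ACAT2, a gene on the opposite strand. ACAT2 fell as well, from a mean of 53.4 to 14.2 TPM (log2 fold change -1.84, limma adjusted p = 1.6e-06). The part of shared reads in the TCP1 result was not tested.

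**Figure D3:**
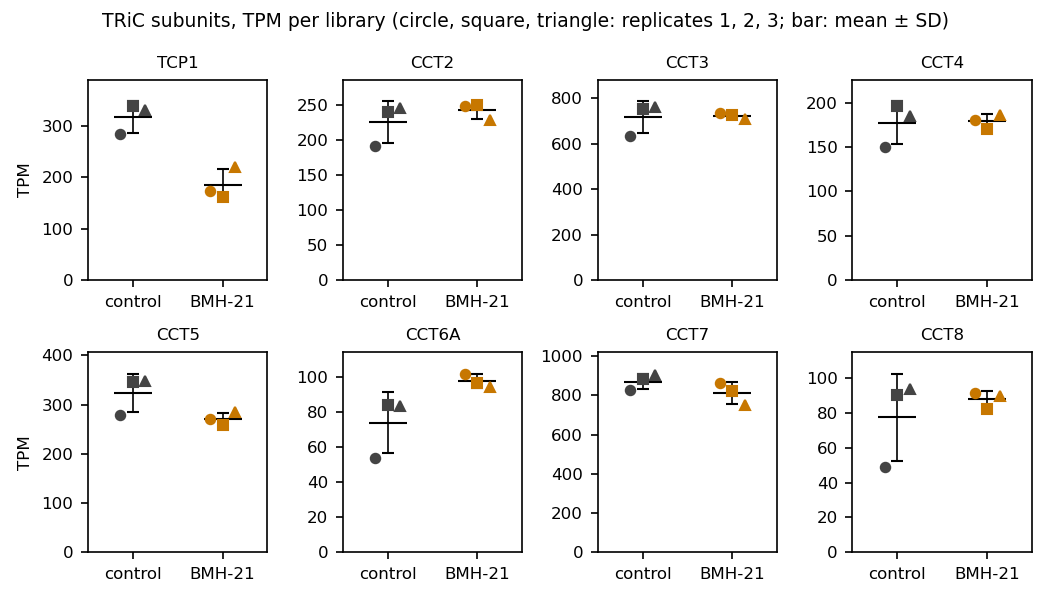
TPM of the 8 TRiC subunits in each library, on a linear axis from 0. Circles, squares and triangles are replicates 1, 2 and 3, and bars are the mean ± SD of 3 libraries. TCP1 was at 161 to 220 TPM after BMH-21 against 283 to 338 TPM in controls, while control replicate 1 was the lowest control for every subunit.

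CCT2, CCT3, CCT4 and CCT7 overlapped between the groups, with log2 fold changes from -0.10 for CCT7 to 0.11 for CCT2. CCT3 was at 636, 753 and 760 TPM in controls and 735, 727 and 710 TPM after BMH-21, and CCT7 at 825, 881 and 903 TPM and then 861, 820 and 752 TPM. CCT2 was at 192, 240 and 246 TPM in controls and 249, 250 and 229 TPM after BMH-21, and CCT4 at 150, 196 and 185 TPM and then 180, 170 and 186 TPM. Control replicate 1 was the lowest control for each of them.

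CCT5 and CCT6A came nearest to the threshold, in opposite directions. CCT5 was at 279, 345 and 347 TPM in controls and 271, 258 and 284 TPM after BMH-21 (log2 fold change -0.25, limma adjusted p = 0.078). CCT6A was at 54.0, 84.4 and 83.8 TPM in controls and 102, 96.5 and 94.4 TPM after BMH-21, with all treated libraries above the controls (log2 fold change 0.42, limma adjusted p = 0.068). CCT5 passed as lower with the trimmed mean scaling (adjusted p = 0.048) and without control replicate 1 (adjusted p = 0.013), and CCT6A as higher with quantile normalization (adjusted p = 0.032) and without control replicate 2 (adjusted p = 0.048). The log2 fold change of CCT6A was 0.21 without control replicate 1 (adjusted p = 0.075). CCT8 was at 48.7, 90.0 and 93.7 TPM in controls and 91.3, 82.3 and 89.5 TPM after BMH-21, where the low control was replicate 1 (log2 fold change 0.23, limma adjusted p = 0.43), and without that library it was at -0.07 (adjusted p = 0.58).

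In level, the TRiC subunits ran from CCT7 and CCT3 at 870 ± 39.9 and 716 ± 69.9 TPM in controls down to CCT8 and CCT6A at 77.4 ± 24.9 and 74.1 ± 17.4 TPM (SD, n = 3 libraries). Between them stood CCT5 at 324 ± 38.7, TCP1 at 317 ± 30.2, CCT2 at 226 ± 29.8 and CCT4 at 177 ± 24.2 TPM. CCT5 and TCP1 differed by less than their spread, as did CCT8 and CCT6A. After BMH-21, TCP1 at 185 ± 31.3 TPM stood below CCT2 at 243 ± 12 TPM and within its own spread of CCT4 at 179 ± 7.75 TPM. The sum over the 8 subunits went from 2780 ± 273 to 2600 ± 56.9 TPM, a difference within the spread of the controls that was not tested. That spread came from control replicate 1, at 2470 TPM. Control replicates 2 and 3, at 2930 and 2950 TPM, were above every treated library (2560 to 2660 TPM).

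Other genes of protein folding, taken from a longer list of partners, were called about as often as all genes. Of 76 listed, 71 were kept, with 15 higher (21.1%, against 19.4% of all genes) and 11 lower (15.5%, against 16.9%), and the median log2 fold change was -0.02. Partners of TRiC contributed 6 of the higher genes among 16 kept, with 2 lower and a median of 0.14. Prefoldin delivers unfolded actin and tubulin to TRiC, and its subunit PFDN4 went from 60.7, 48.5 and 46.9 TPM in controls to 120, 107 and 83.6 TPM after BMH-21 (log2 fold change 0.97, limma adjusted p = 0.0012). PFDN6, PFDN2 and PFDN1, named after their values were seen, had log2 fold changes of 0.52, 0.43 and 0.24, of which PFDN1 was not called without control replicate 2 or 3 or BMH-21 replicate 1 or 2 (adjusted p between 0.085 and 0.13) and passed in 7 of 16 alternative settings. PFDN5 and VBP1, the other prefoldin subunits, did not pass, at 0.05 and 0.40.

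PFDN4 had the third largest rise of that list on the log2(TPM + 1) scale. CDC37L1, a relative of CDC37, rose from 1.94 ± 0.23 to 5.86 ± 0.27 TPM (SD, n = 3 libraries per group; log2 fold change 1.22, limma adjusted p = 0.00035). DNAJC24, a cofactor of diphthamide synthesis, SUGT1, an HSP90 partner at kinetochores, and DNAJC2, a ribosome-associated J-domain protein, had log2 fold changes of 0.99, 0.84 and 0.76. DNAJC2 just missed the threshold without BMH-21 replicate 1 or 2 (adjusted p = 0.052 for either). DNAJC9, a histone chaperone with a J-domain, fell from 31.7 ± 2.34 to 4.22 ± 0.90 TPM, with the groups far apart (log2 fold change -2.66, limma adjusted p = 4.9e-06). HSPA2, an HSP70 best known from the testis, fell from 2.85 ± 0.17 to 0.65 ± 0.15 TPM, a 4.37-fold difference of means that reads -1.22 on the log2(TPM + 1) scale (limma adjusted p = 0.00028) and -1.99 with a pseudocount of 0.1. With any control left out, HSPA2 no longer met the filter and was not fitted. FKBP5, a steroid-inducible relative of FKBP4, LONP1, the protease of the mitochondrial matrix, and PPP5C, a phosphatase that binds HSP90, fell by 0.89, 0.59 and 0.48 on the log2(TPM + 1) scale. HSF2 and HSF4, the other heat shock factors on the list, did not pass.

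**Figure D4:**
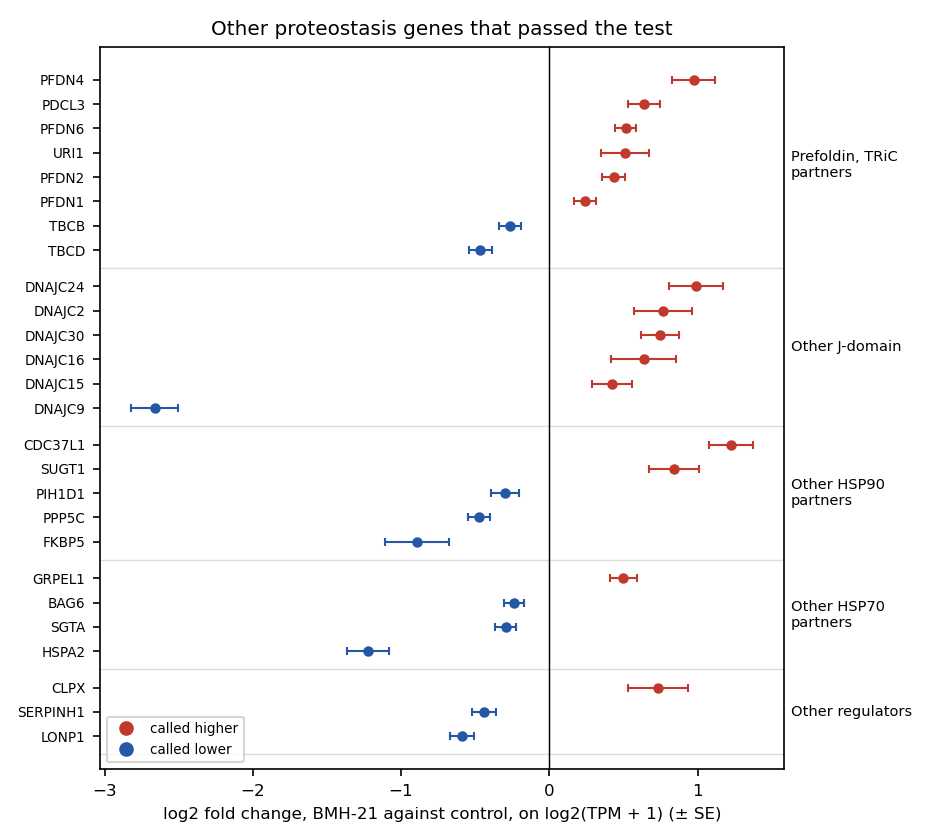
Log2 fold change of the 26 listed partner genes that passed the test, BMH-21 against control, on the log2(TPM + 1) scale, grouped by role. Points are estimates of the limma fit and bars are ± 1 SE; 15 genes were higher and 11 lower, and DNAJC9 stood at -2.66.

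Summed by role, the TPM of exchange factors other than HSP110 went from 214 ± 2.81 to 179 ± 6.27 TPM and that of HSP90 cochaperones from 1310 ± 73.9 to 1110 ± 109 TPM (SD, n = 3 libraries per group). The sums of J-domain proteins and HSP110 were at 352 ± 33.8 and 47.9 ± 7.25 TPM in controls against 415 ± 38.5 and 59.6 ± 5.39 TPM after BMH-21. The HSP70 sum, most of it HSPA8, was at 1660 ± 181 and 1680 ± 105 TPM, and the mitochondrial sum at 1580 ± 170 and 1490 ± 35.3 TPM. Over all 41 genes the sum was 10800 ± 978 and then 10200 ± 388 TPM, within the spread of the controls. Here too that spread came from control replicate 1, at 9650 TPM. Control replicates 2 and 3, both at 11300 TPM, were above every treated library (9840 to 10600 TPM). These sums were not tested.

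How far the calls depended on single libraries and settings differed between the 41 genes. All 14 called genes kept their direction in each of 16 alternative settings. The groups did not overlap for any of these genes, so leaving libraries out could not have turned their direction. The calls of DNAJB6, BAG1 and TCP1 held in every alternative setting, those of HSPA4 and PTGES3 in 15, and those of HSPA1B and FKBP4 in 7. Without control replicate 1 and BMH-21 replicate 3, HSPA4, DNAJA3 and HSPBP1 were still called, at log2 fold changes of 0.29, 0.20 and -0.19. Those libraries lay farthest from their group means. Leaving both out lowers the spread within groups, so a call in that setting is not added support.

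**Figure D5:**
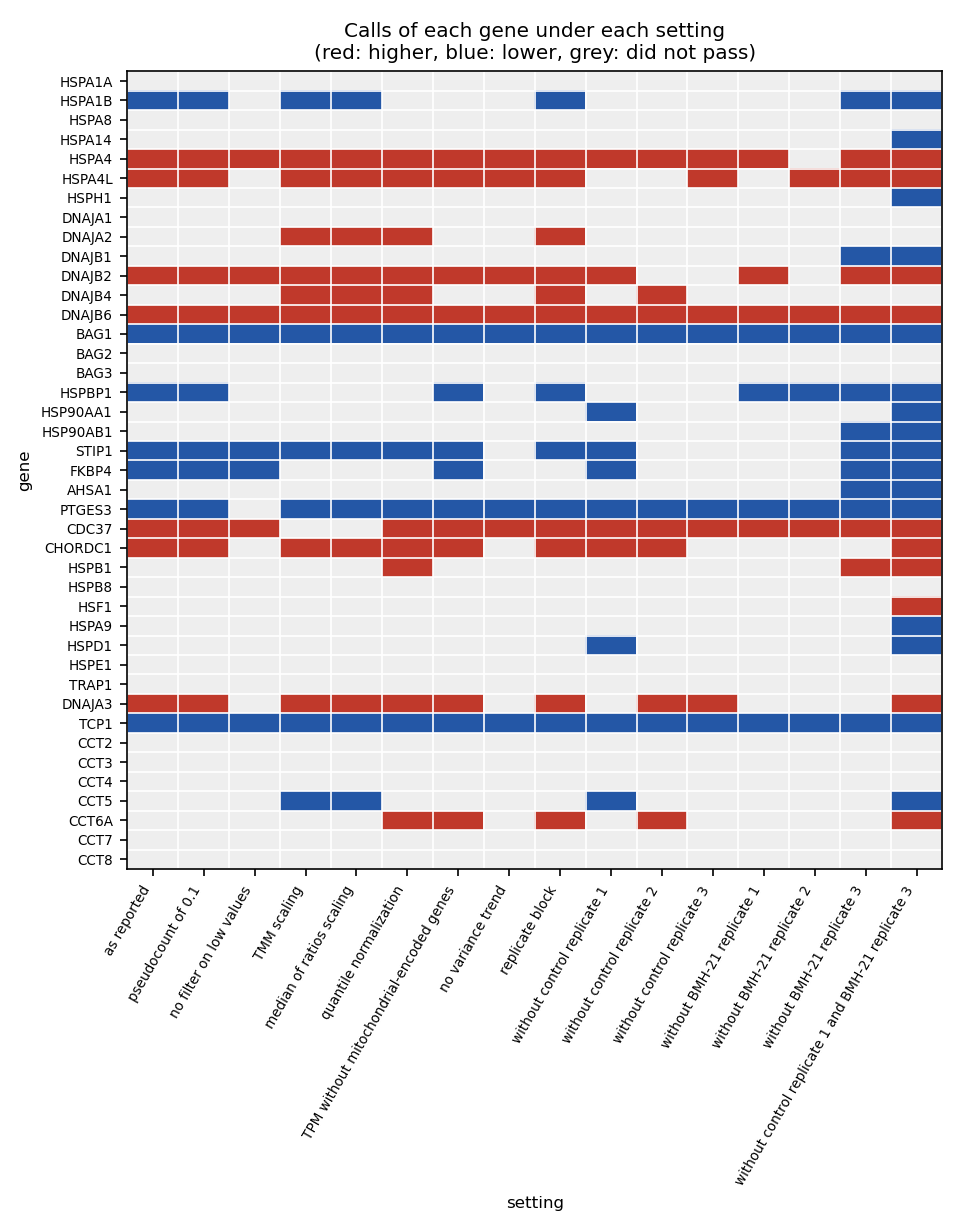
Call of each chaperone gene (rows) in the fit as reported and under 15 alternative settings (columns). Red is higher, blue is lower and grey did not pass; DNAJB6, BAG1 and TCP1 were called in every column, and the last column, without control replicate 1 and BMH-21 replicate 3, held 10 higher and 16 lower calls.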

How the data were processed

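Per the labels' protocols, RNA was extracted with Trizol, ribosomal RNA was removed with a Ribo-Zero kit and cDNA was primed with random hexamers, whereas polyA RNA is given as the molecule. The deposited values are TPM per gene and library, made by the authors. The submitters' processing notes list STAR, Salmon and GRCh38. Their versions, the annotation and the strand setting were not given in the sources used here. Sequencing depth cannot be read from TPM and is unknown here. Without depth, low TPM values are the least precise.

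The 3 treated and 3 control libraries entered a limma fit (version 3.58.1, R 4.3.3) on log2(TPM + 1) with a variance trend, two-sided, over the 12041 genes with at least 1 TPM in at least 3 of 6 libraries. Benjamini-Hochberg adjustment ran over all of these genes, and a gene was called at an adjusted p under 0.05. A fold change on this scale understates the change of low genes. The fit was first tested on simulated data. The chaperone genes, the list of partner genes and the tests were chosen with earlier results of these data known. Library values were named for the 12 called chaperone genes with the largest changes, the HSP90 genes, HSPA1A, HSPA1B, HSPA8, HSPD1, HSPE1, HSF1 and TRiC, and among partner genes the 5 largest rises and 5 largest falls were named. Positions come from GENCODE release 29 and promoters from RefSeq, both on GRCh38. Alternatives were the pseudocount, the filter, 4 scalings, no variance trend, a replicate block, summing HSPA1A with HSPA1B, and libraries left out.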

Additional observations from a re-analysis of the deposited data

How the results depend on the processing

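With all chaperone genes counted, 7 higher and 7 lower became 4 and 4 with no filter on low values, 11 and 4 with quantile normalization, and 5 and 3 with no variance trend, where 7 partner genes were lower in place of 11. Without control replicate 1 and BMH-21 replicate 3, 6652 genes were called, 2816 higher and 3836 lower, with 10 chaperone and 18 partner genes higher and 16 and 21 lower. With 1 library left out at a time, all genes called ran from 3083 to 5035, those lower from 1320 to 2816, chaperone genes higher from 3 to 7 and lower from 3 to 10, and partner genes higher from 9 to 15 and lower from 6 to 14. HSP90AA1 (0.02) reversed to -0.30 without control replicate 1 and to -0.23 without both of these libraries, and reached 0.18 without control replicate 2. The median over chaperone genes stayed between -0.09 and 0.01 in every setting. The cause of these shifts was not tested. The trimmed mean scaling gave 8 higher and 6 lower chaperone genes, with 11 of the 14 calls shared. Replicate numbers showed no clear pairing of the samples (correlations of deviations 0.04, -0.14 and 0.02 for numbers 1 to 3, and not every library was closest to its own number). With 3 libraries per group, these correlations cannot settle whether the samples were paired by design. A replicate block gave 4608 genes called in place of 4380, and 10 higher and 6 lower chaperone genes, 13 of the 14 calls shared. In it, the ratio of HSP90AA1 to HSP90AB1 differed by 0.24 (exact permutation p = 0.75) and that of the HSP70 pair to HSPA8 by -0.41 (exact permutation p = 0.25). That last value is the smallest that 3 pairs can give.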

Other observations

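Several chaperone genes start, by RefSeq, within 1000 bases of a gene on the opposite strand, and the neighbours, chosen after their values were seen, did not always move alike. BAG1, which fell, starts 341 bases from CHMP5, a gene of the membrane-remodelling ESCRT machinery, which rose by a log2 fold change of 0.70 (limma adjusted p = 0.011). TCP1, which also fell, starts 210 bases from MRPL18, a mitochondrial ribosomal protein gene, at 0.17 (limma adjusted p = 0.12). Without BMH-21 replicate 3, MRPL18 passed as higher, at 0.21 (adjusted p = 0.026). DNAJA1 did not pass, at 0.24, and its neighbour APTX, which repairs DNA ends, starts 153 bases away and rose by 0.42 (limma adjusted p = 0.0049). In a pair of the same sign, DNAJB1 did not pass, at -0.19, and TECR, starting 323 bases away, fell, at -0.96 (limma adjusted p = 3.0e-05).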
